A study of Mus musculus with 6 samples.

Results

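RNA recovered by immunoprecipitation with an antibody against CPEB4 was compared with RNA recovered by control IgG, gene by gene, in muscle stem cells of mice. RNA immunoprecipitation (RIP) pulls a protein out of a cell lysate together with the RNA it holds, and the IgG RIP measures what an antibody without that target brings down. The comparison took 4 of the 6 libraries, 2 of CPEB4 RIP and 2 of IgG RIP, and the remaining 2 were input RNA. The cells in every group were muscle stem cells sorted by flow cytometry from C57BL/6 mice aged 3 months, with no further genotype or treatment given in the labels. Libraries were made with SMART-seq2, a method for small amounts of RNA that covers whole transcripts, and sequenced in pairs on a DNBSEQ-G400. Of 55376 genes in the table, 18054 passed the count filter and were tested, and 37322 did not. The genes that did not pass held 0.218% and 0.173% of the counts in the CPEB4 RIP libraries and 0.609% and 0.225% in the IgG RIP libraries, with replicate 1 given first here and throughout.

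CPEB4 belongs to the cytoplasmic polyadenylation element binding proteins. These bind a U-rich element in the 3′ untranslated region of messages and, through enzymes that lengthen or shorten the poly(A) tail, raise or lower translation. In muscle, stem cells lie quiescent beside the fibre and enlarge, build ribosomes and mitochondria and divide when they are activated. The comparison asks which RNAs make up a larger share with the specific antibody than with the control antibody.

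The CPEB4 RIP libraries held 12679621 and 20843042 counts, the IgG RIP libraries 9018323 and 14225502, and the input libraries 16314360 and 12426827. At least 1 count was seen for 29152 and 28321 genes in CPEB4 RIP and for 30953 and 23297 in IgG RIP, so the second IgG RIP library had the fewest genes although it was the deeper of its pair. Of the genes tested 1805 had no count in it, against 344 in the first IgG RIP library and 355 and 505 in CPEB4 RIP. Per the design text the replicates of CPEB4 RIP are biological, but neither animals nor preparations are named. The p-values therefore measure the spread between these libraries, part of which may be technical. The 14 muscle stem cell markers held 6.08% and 6.37% of the CPEB4 RIP counts and 6.60% and 5.78% with IgG. Pax7, the transcription factor that defines these cells, was read at 290 and 265 CPM (counts scaled to a common library size, here by TMM) with the CPEB4 antibody and at 189 and 282 with IgG.

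All values are relative to the scaled total of their library, so a lower value need not mean less RNA recovered in amount. No measure of the amount of RNA that each antibody recovered was used. On this scale CPEB4 RIP held more RNA of short genes, of ribosomal proteins, of the mitochondrial genome and of small mitochondrial subunits. It held less RNA of long genes, and lists of cytosolic chaperones, tRNA synthetases, vesicle coats and RNA helicases had members lower and none higher. Of 18054 genes, edgeR's quasi-likelihood test called 1482 (8.21%) at a Benjamini-Hochberg adjusted p of 0.05. In CPEB4 RIP 864 genes (4.79%) were higher and 618 (3.42%) were lower. In 5300 genes (29.4%) both CPEB4 RIP libraries lay above both IgG RIP libraries, and in 4612 (25.5%) both lay below. These shares give the background over all input levels for the counts of members below. Genes past the test, changed at least 2-fold and without overlap numbered 631 higher (3.50%) and 381 lower (2.11%). Without CPEB4 RIP replicate 2 edgeR called 0 genes, with 2312 at an unadjusted p under 0.05, and without CPEB4 RIP replicate 1 it called 193 higher and 11 lower. Without IgG RIP replicate 1 it called 4913 and 2797, and without IgG RIP replicate 2 it called 3914 and 3491, in fits where the lone library was assumed to vary like the other groups.

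The length of the gene model, the merged exons over which the authors counted, ordered the class medians of protein-coding genes in every pair of libraries. Model length is not message length, since merged exons can exceed any single message, and message length was not measured. Among protein-coding genes of the nucleus, 54 of 213 with models of 500 to 999 bases were higher (25.4%) and the other 159 did not pass. At 1000 to 1999 bases 208 of 1340 were higher and 9 lower. At 2000 to 3999 bases the counts were 274 and 137 of 4092, and at 4000 to 7999 bases they were 193 and 233 of 5484. At 8000 bases or more 38 of 2752 were higher (1.38%) and 158 lower (5.74%). The median log2 fold of these classes fell in steps, from 0.73 at 500 to 999 bases through 0.44, 0.05 and -0.10 to -0.35 at 8000 bases or more. The 32 genes under 500 bases had a median of 1.04, with 5 higher. The median of all genes tested was -0.07.

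**Figure D1:**
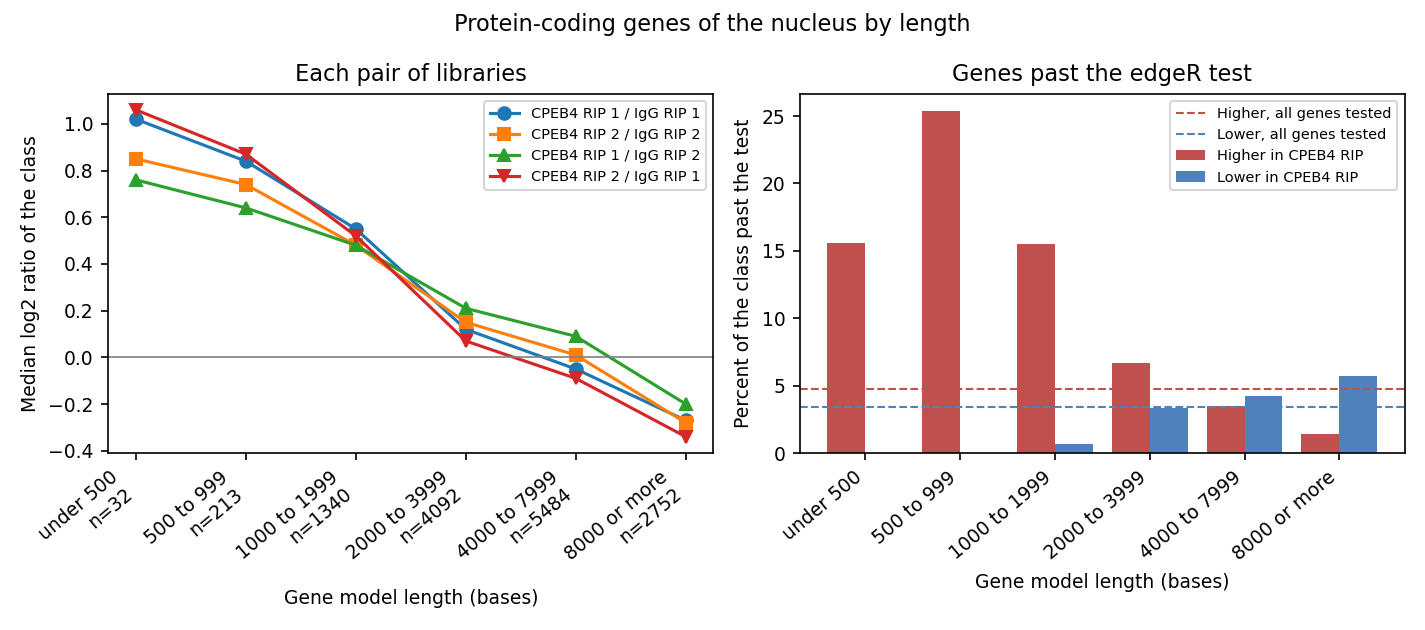
Protein-coding genes of the nucleus in 6 classes of gene model length (x axis, bases). Left, the class median of the log2 ratio for each of the 4 pairs of a CPEB4 RIP and an IgG RIP library, from log CPM. Right, the percent of each class higher or lower in edgeR's test, with dashed lines at 4.79% and 3.42% for all genes tested. The 4 lines run downward together, and the higher bars give way to the lower bars as length grows.

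For protein-coding genes of 500 to 999 bases the median log2 ratio was 0.84 for replicate 1 over replicate 1 and 0.74 for replicate 2 over replicate 2. Crossing the pairs gave 0.64 and 0.87. For genes of 8000 bases or more the same 4 pairs gave -0.27, -0.28, -0.20 and -0.34. Leaving out the cytosolic ribosomal proteins moved the medians little, to 0.71 at 500 to 999 bases, 0.41 at 1000 to 1999 and -0.35 at 8000 or more. Over all genes tested, models under 1000 bases took 5.28% and 5.42% of the CPEB4 RIP counts, 3.37% and 3.62% with IgG and 3.25% and 3.31% of input. Models of 4000 bases or more took 37.9% and 38.0% of the CPEB4 RIP counts, 44.4% and 46.0% with IgG and 47.1% and 47.9% of input. In both length classes the 2 IgG RIP libraries lay nearer to input than the CPEB4 RIP libraries did, with no overlap between CPEB4 RIP and the other groups. The median log2 fold under 1000 bases exceeded that at 4000 bases or more by 0.69 over all genes tested. Pair by pair, in the same order as above, the medians under 1000 bases were 0.54, 0.48, 0.24 and 0.77, and those at 4000 bases or more were -0.15, -0.09, 0.00 and -0.21. The gap was thus narrowest for CPEB4 RIP replicate 1 over IgG RIP replicate 2, where the finer length classes of all genes were not in order, with 0.28 under 500 bases, 0.19 at 500 to 999 and 0.30 at 1000 to 1999. In the fit the difference of 0.69 was 0.22 without CPEB4 RIP replicate 2, 0.37 without IgG RIP replicate 1 and 0.17 with no low-count filter. With an offset for gene length fitted on all genes edgeR called 0 genes, with 3797 at an unadjusted p under 0.05, and with the offset fitted on genes of at least 10 input CPM it called 684 higher and 767 lower and the difference was -0.07.

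Genes were taken as examples from each length class in each direction, as those with the highest input level among genes past the test and changed at least 2-fold without overlap. Their direction and lack of overlap follow from this rule, so they describe single genes and not the length pattern. Rplp1, a stalk protein of the large ribosomal subunit with a model of 499 bases (chromosome 9, 61913283 to 61914510 on GRCm38, which is mm10), held 586 and 613 CPM in CPEB4 RIP against 191 and 188 with IgG. Its log2 fold was 1.66 (SE 0.14, edgeR adjusted p = 0.00518), and the 4 pair ratios ran from 1.62 to 1.71. Both IgG RIP libraries were near the input libraries, at 214 and 202 CPM, and both CPEB4 RIP libraries were far above them. Fth1, the heavy chain of the iron store ferritin (chromosome 19, 9980600 to 9985111), held 3869 and 3882 CPM against 862 and 989, with input at 1669 and 1595. It had a log2 fold of 2.07 (SE 0.13, edgeR adjusted p = 0.00316), and its IgG RIP libraries lay below input while its CPEB4 RIP libraries lay above it.

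Some genes with long models were higher too. Pmepa1, a membrane inhibitor of TGF-beta signalling with 4913 bases, held 2055 and 2321 CPM in CPEB4 RIP against 686 and 903 in IgG RIP (log2 fold 1.46, SE 0.17). Ppm1a, a protein phosphatase with 12829 bases, held 199 and 200 CPM against 71.9 and 91.1 (1.29, SE 0.18, edgeR adjusted p = 0.0106). Tm9sf3, a membrane protein of the secretory path with 8096 bases, held 206 and 201 CPM against 81.5 and 98.0 (1.18, SE 0.22). The length classes of these 3 genes had medians below 0. Rack1, a scaffold protein of the small ribosomal subunit with a model of 5119 bases, was higher at 1466 and 1437 CPM against 703 and 727. These lengths are of models, so the genes need not have long messages.

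Examples on the lower side were taken in the same way. Hspa5, the main chaperone of the endoplasmic reticulum, held 3871 and 4726 CPM in CPEB4 RIP against 12146 and 12674 with IgG, and input was at 17868 and 16773. Its log2 fold was -1.53 (SE 0.13, edgeR adjusted p = 0.00542), and the lowest IgG RIP value was well above the highest CPEB4 RIP value. Map1b, a microtubule-associated protein of 15846 bases, held 628 and 787 CPM against 1833 and 2552 (-1.63, SE 0.19). Eprs, the tRNA synthetase for glutamate and proline, with a model of 18102 bases, held 434 and 515 CPM against 951 and 1118 (-1.12, SE 0.16). Shorter genes on this side included Herpud1, a stress-induced protein of the same compartment as Hspa5, at 924 and 972 CPM against 2241 and 1862. Ruvbl1, an ATPase of chromatin remodelling complexes with 1899 bases, held 55.2 and 62.6 CPM against 115 and 135 (-1.09, SE 0.20, edgeR adjusted p = 0.021).

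The number of genes that passed and the agreement of the replicates varied with the expression level in input. The input libraries are on neither side of the comparison, but they enter the filter, scaling and spread of the test. With only the 4 libraries compared, 598 genes were higher and 375 lower. Among 109 genes of at least 1000 CPM in input, 14 were higher (12.8%) and 28 lower (25.7%). Among 1521 genes of 100 to 1000 CPM, 180 were higher (11.8%) and 255 lower (16.8%). At 10 to 100 CPM the order was the other way, with 499 of 5482 higher (9.10%) and 242 lower (4.41%). At 1 to 10 CPM 153 of 7819 were higher and 70 lower, and under 1 CPM 18 of 3123 were higher and 23 lower. Genes called higher had a median input level of 34.1 CPM and a median model of 2531 bases, and genes called lower had medians of 88.8 CPM and 5338 bases. All genes tested had medians of 5.20 CPM and 3841 bases.

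At the low end of this scale the direction depended on the IgG RIP library. Under 1 input CPM the median log2 ratio was -0.64 for replicate 1 over replicate 1 and 0.18 for replicate 2 over replicate 2, so the direction of the class differed between pairs. With IgG RIP replicate 2 as the base it was 0.30 for CPEB4 RIP replicate 1, and with IgG RIP replicate 1 as the base it was -0.80 for CPEB4 RIP replicate 2. The class median of the fit, -0.76, took the sign of the ratios over IgG RIP replicate 1. The median at 100 CPM or more exceeded it by 0.61, and this difference was -0.84 without IgG RIP replicate 1 and 1.60 without IgG RIP replicate 2. IgG RIP replicate 2 had no count for 29.5% of these genes, against 6.79% in IgG RIP replicate 1 and 9.22% and 12.6% in CPEB4 RIP. No direction is therefore given for genes under 1 CPM as a class.

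**Figure D2:**
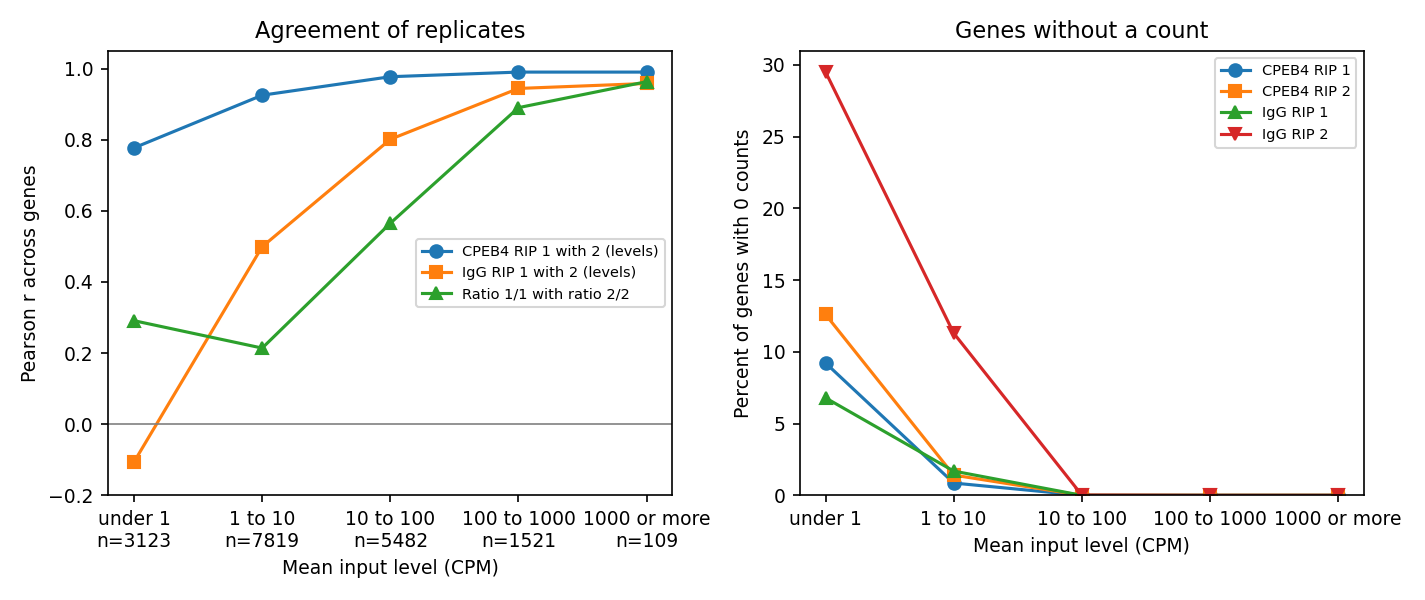
Replicates by mean input level (x axis, CPM). Left, Pearson r across the genes of each class for log CPM of the 2 CPEB4 RIP libraries, of the 2 IgG RIP libraries, and for the log2 ratios of the 2 disjoint pairs. Right, the percent of genes with 0 counts in each of the 4 libraries. The IgG RIP replicates have r of -0.106 under 1 CPM and 0.958 at 1000 CPM or more, and IgG RIP replicate 2 has the most genes at 0.

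The ratios of the disjoint pairs, CPEB4 RIP 1 over IgG RIP 1 and CPEB4 RIP 2 over IgG RIP 2, were correlated across genes by r = 0.963 at 1000 CPM or more and 0.890 at 100 to 1000 CPM. The value was 0.565 at 10 to 100 CPM, 0.214 at 1 to 10 CPM and 0.291 under 1 CPM. Genes are not independent replicates, and each pair shares its antibody, so these values describe the libraries. At 100 to 1000 CPM 84.9% of genes had the same sign in both pairs, and under 1 CPM 55.2% did. The IgG RIP replicates themselves had r = 0.801 at 10 to 100 CPM and 0.499 at 1 to 10 CPM, where the CPEB4 RIP replicates had 0.977 and 0.925. A ratio of at least 2-fold upward was seen for 3199 genes in the first pair and 4089 in the second, and 1434 genes had it in both. Downward the numbers were 3548, 2804 and 1227. Of genes with a 2-fold ratio in opposite directions, 387 were under 1 CPM, 653 at 1 to 10 CPM and 18 at 10 to 100 CPM.

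From 500 bases upward, length ordered the class medians at 10 to 100 CPM and at 100 to 1000 CPM in the fit and in each of the 4 pairs of libraries. At 10 to 100 CPM the median log2 fold went from 0.77 for 155 genes of 500 to 999 bases through 0.45 and 0.15 to -0.02 at 4000 to 7999 bases and -0.20 for 1225 genes of 8000 bases or more. At 100 to 1000 CPM it went from 0.90 for 31 genes to -0.46 for 313 genes between the same classes. In that level 18 of the 31 genes of 500 to 999 bases were higher (58.1%), and at 8000 bases or more 78 of 313 were lower (24.9%). At 1 to 10 CPM the fitted median fell with length from 0.56 under 500 bases to -0.56 at 8000 or more, but the ratios over IgG RIP replicate 2 did not follow that order. For CPEB4 RIP replicate 1 over that library they were 0.30 under 500 bases, 0.03 at 500 to 999, 0.50 at 2000 to 3999 and 0.12 at 8000 or more, and for CPEB4 RIP replicate 2 they were 0.61, 0.27, 0.38 and -0.15. Under 1 CPM the 120 genes of 8000 bases or more had a fitted median of -1.82, with pair medians of -1.54 and -1.92 over IgG RIP replicate 1 and of 0.50 and 0.00 over IgG RIP replicate 2. Their sign thus depended on the IgG RIP library, and no order by length is given under 1 CPM.

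**Figure D3:**
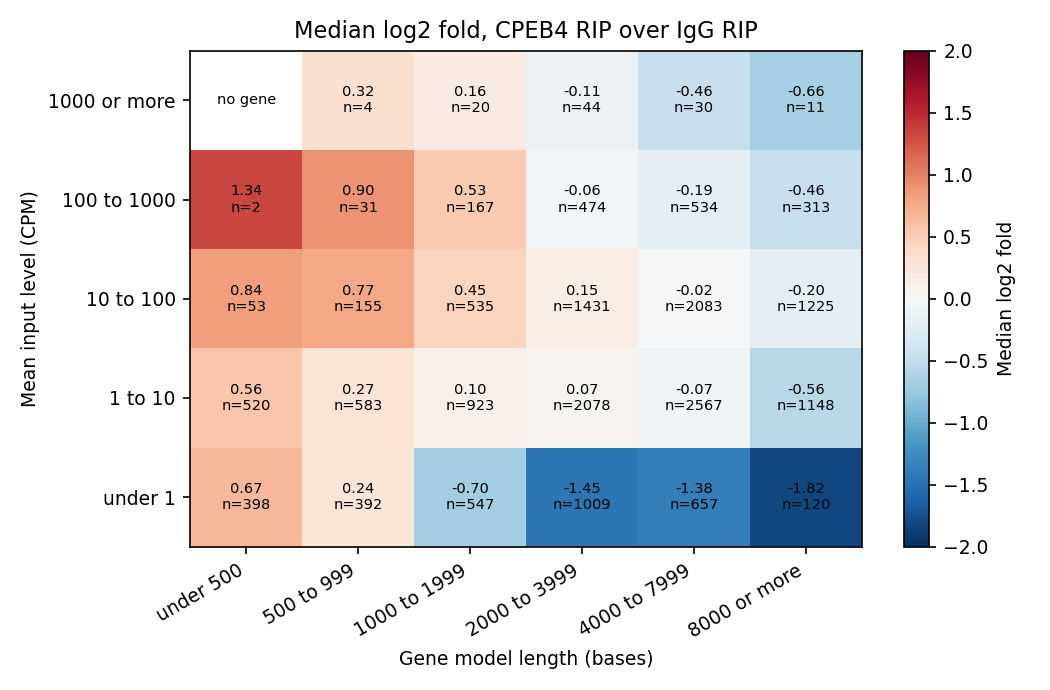
Median log2 fold of CPEB4 RIP over IgG RIP (colour and number) in each class of gene model length (x axis, bases) and mean input level (y axis, CPM), with the number of genes tested. Within a row the values go from red at short lengths to blue at long lengths, and the bottom row holds the lowest medians, whose sign at the longest lengths depends on the IgG RIP library.

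Functional classes were taken from gene lists, and each is described by its members past the test beside the background of 4.79% higher and 3.42% lower. This background covers all input levels. At 10 to 100 input CPM 9.10% of genes were higher and 4.41% lower, and at 100 to 1000 CPM 11.8% and 16.8%. The median input was 136 CPM for tRNA synthetases, 126 for coats and 440 for heat shock genes, so their shares compare with the latter. Because length and level also sort the genes, members were also set beside the median of the genes outside their list in the same length and input class. Members whose class held too few such genes were left out of this step. For the 35 small subunit proteins of the cytosolic ribosome, 30 were higher and 5 did not pass. Of 52 large subunit genes 40 were higher and 12 did not pass. The median log2 fold was 1.12 and 0.96. As a median over the 35 small and 48 large subunit genes that could be compared, members lay 0.85 and 0.66 above the genes of the same length and level. In 34 of 35 small and 50 of 52 large subunit genes both CPEB4 RIP libraries were above both IgG RIP libraries. The small subunit genes took 2.38% and 2.41% of the CPEB4 RIP counts and 1.21% and 1.19% with IgG, and the large subunit genes took 3.05% and 3.05% against 1.64% and 1.66%. Without CPEB4 RIP replicate 1, 23 small and 22 large subunit genes were higher. Ribosomal protein genes have many near-identical processed copies. The sources used here do not say how reads that match more than one place were treated, so values of single members are uncertain.

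**Figure D4:**
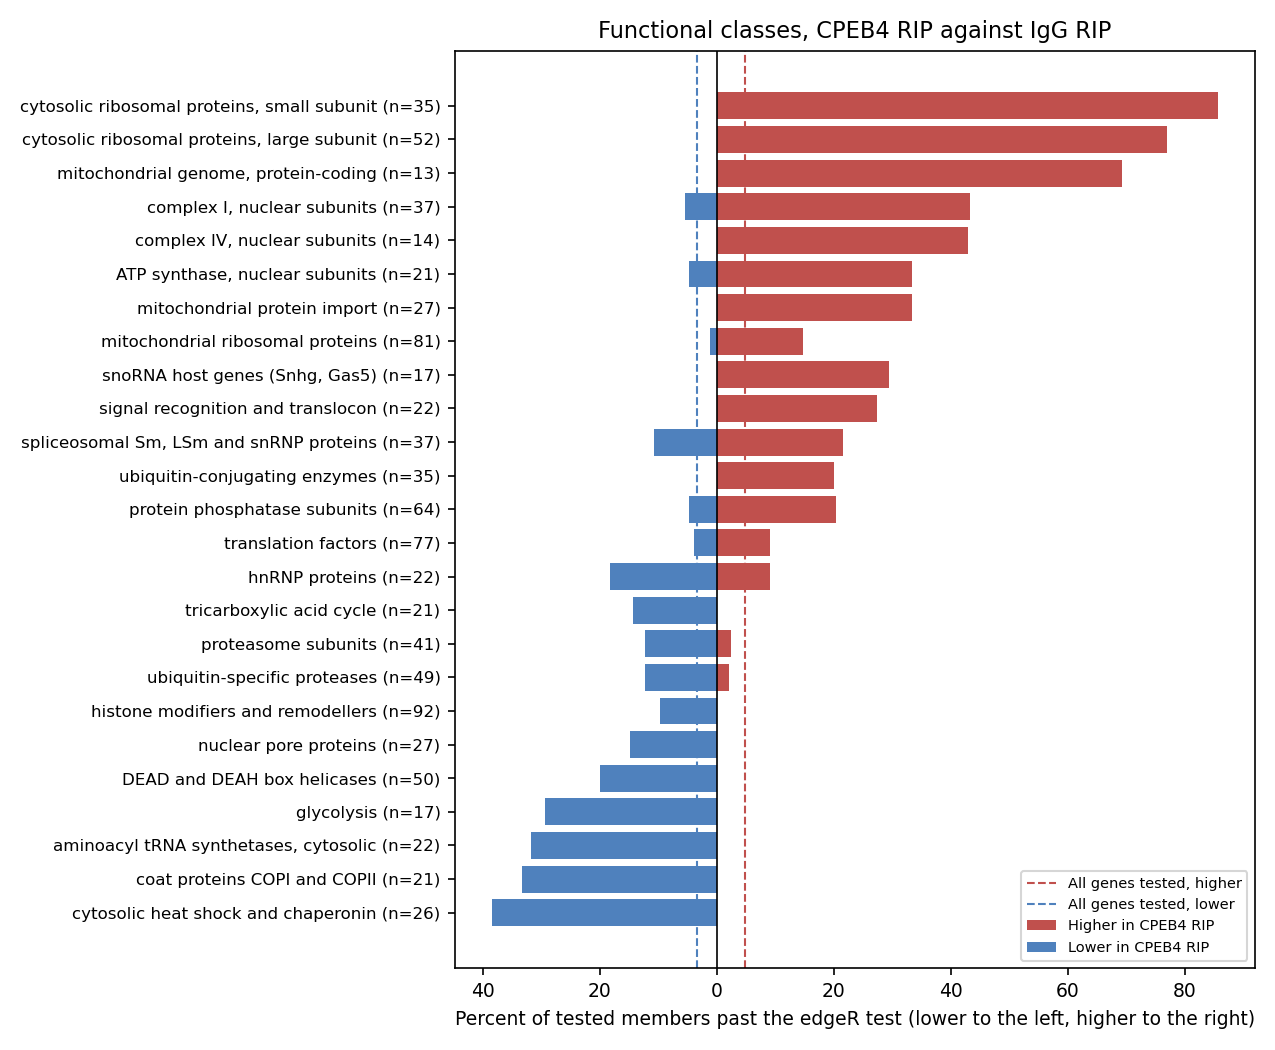
Percent of the tested members of 25 functional classes that were higher (right, red) or lower (left, blue) in CPEB4 RIP than in IgG RIP in edgeR's test, with dashed lines at 4.79% and 3.42% for all genes tested. The lines cover all input levels, and at 100 to 1000 CPM 11.8% of genes were higher and 16.8% lower. Ribosomal proteins and the mitochondrial genome stand at the top, and heat shock proteins, vesicle coats and tRNA synthetases stand at the bottom.

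Rps12, a small subunit protein, held 299 and 339 CPM in CPEB4 RIP against 62.5 and 48.6 with IgG. Its log2 fold was 2.52 (SE 0.19, edgeR adjusted p = 0.00369). Rpl12 of the large subunit held 481 and 537 CPM against 118 and 120, with input at 118 and 130 (2.10, SE 0.15). In both genes the CPEB4 RIP libraries lay far above both IgG RIP libraries. Messages of ribosomal proteins are known for a run of pyrimidines at the very 5′ end, so the bases around the RefSeq start of members that rose are shown. Each line gives 25 bases before and 25 from the start onward on the gene's strand (RefSeq, GRCm38.p6), with capitals for the longest run of C and T letters overlapping the 20 bases on either side of the start. Rps12 and Rpl12 are ribosomal proteins with a run of 11 and 7 letters, and the mitochondrial subunits Ndufa1 and Uqcr11, which rose as well, have 5 letters each. Rplp0 and Rps2, the other named ribosomal protein genes with such a window, have runs of 7 and 6 letters.
Rps12, chr10:23787185-23787234, minus strand: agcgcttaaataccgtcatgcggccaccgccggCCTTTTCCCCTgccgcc
Rpl12, chr2:32961687-32961736, plus strand: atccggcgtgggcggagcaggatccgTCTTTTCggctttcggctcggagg
Ndufa1, chrX:37191214-37191263, minus strand: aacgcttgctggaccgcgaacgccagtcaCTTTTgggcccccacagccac
Uqcr11, chr10:80406797-80406846, minus strand: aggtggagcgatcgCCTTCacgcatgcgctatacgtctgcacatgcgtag

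A run of at least 8 letters, each C or T, on the gene's strand and overlapping these 20 bases was held by 34 of 64 ribosomal protein genes with a RefSeq promoter (53.1%). Among all 32851 starts listed for promoters, 21.0% held one, and of the 11784 genes tested that had a promoter 24.2% did. Genes called higher other than ribosomal proteins held it in 21.6%, genes called lower in 18.9%, and nuclear subunits of complex I in 3 of 33 (9.09%). Of the ribosomal protein genes named above, Rps12 reaches this length, and Rpl12, Rplp0 and Rps2 do not. The run was thus common among the ribosomal proteins and near the background among the other genes called higher. A match describes the letters in this window and not the start that these cells use.

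Translation factors had 7 of 77 members higher (9.09%) and 3 lower, with a median of -0.02, and of 0.01 relative to genes of the same length and level. Eif3f, a subunit of initiation factor 3, held 220 and 192 CPM in CPEB4 RIP against 92.3 and 93.1 (log2 fold 1.15, SE 0.15), and Eif3c of the same factor held 199 and 198 against 380 and 326 (-0.83, SE 0.15). So 2 subunits of 1 factor changed in opposite directions, with models of 2891 and 3511 bases. Of 22 cytosolic tRNA synthetases 7 were lower (31.8%) and 15 did not pass, with a median of -0.60, and of -0.50 relative to genes of the same length and level. In 17 of the 22 both CPEB4 RIP libraries were below both IgG RIP libraries. Iars, for isoleucine, held 66.2 and 68.7 CPM against 128 and 151 (-1.04, SE 0.16, edgeR adjusted p = 0.0132). Without CPEB4 RIP replicate 1 no synthetase was among the 11 genes called lower, and the count was 5 with either input library left out.

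Ribosomal RNAs and protein-coding transcripts of the mitochondrial genome had the highest median folds of the lists, 2.64 and 2.07. Of 13 protein-coding transcripts 9 were higher and 4 did not pass, and both ribosomal RNAs were higher. Of 22 mitochondrial transfer RNA genes 9 were tested, with 1 higher and a median of 1.35. The protein-coding transcripts took 4.32% and 4.07% of the counts in CPEB4 RIP, 0.922% and 1.19% in IgG RIP. mt-Nd1, a core subunit of complex I, held 5393 and 4938 CPM against 806 and 1028 (log2 fold 2.49, SE 0.16, edgeR adjusted p = 0.00316). mt-Cytb of complex III held 21362 and 22767 CPM against 4331 and 6178 (2.07, SE 0.21). The median ratio was 2.30 for the first pair and 1.88 for the second. Without the genes of the mitochondrial genome 1114 other genes were higher and 564 lower, and 852 of the higher genes and 559 of the lower genes were those called with them.

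Nuclear genes of the respiratory chain were often higher. Of 37 nuclear subunits of complex I 16 were higher and 2 lower (median 0.69), and of 14 subunits of complex IV 6 were higher and 8 did not pass (0.90). ATP synthase had 7 of 21 higher and 1 lower (0.74), and complexes II and III had 3 of 15 higher and 1 lower (0.35). Protein import into mitochondria had 9 of 27 higher and 18 not past the test (0.62), and mitochondrial ribosomal proteins had 12 of 81 higher and 1 lower (0.36). Set beside genes of the same length and level, the medians were 0.23 above for complex I, 0.09 for complexes II and III, 0.34 for complex IV, 0.35 for ATP synthase, 0.45 for import and 0.13 for the mitochondrial ribosome. Enzymes of the tricarboxylic acid cycle had 3 of 21 lower (14.3%) and 18 not past the test, with a median of -0.30. Relative to genes of the same length and level it was -0.35. Their median input was 106 CPM, and at 100 to 1000 CPM 16.8% of all genes were lower. With CPEB4 RIP replicate 1 left out the higher members numbered 5 for complex I, 3 for complex IV, 2 for ATP synthase, 2 for import and 1 for the mitochondrial ribosome.

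Cox8a, a small subunit of complex IV, held 438 and 470 CPM in CPEB4 RIP against 186 and 182 in IgG RIP (log2 fold 1.30, SE 0.15, edgeR adjusted p = 0.00764). Timm23, the channel of the inner membrane translocase, held 568 and 659 CPM against 256 and 303 (1.14, SE 0.17). In both the groups were separated by a gap wider than the spread within either group. Slc25a39, a carrier of the inner membrane, held 161 and 148 CPM against 64.2 and 66.6 (1.24, SE 0.17), while of 41 mitochondrial carriers as a list 2 were higher and 1 lower.

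Members of complexes were also compared by length. Over 14 lists of complexes and of factors that work together, 50 of 152 members with models under 2000 bases were higher (median 0.68), and the other 102 did not pass. At 2000 to 3999 bases 19 of 160 were higher and 8 lower (0.19). At 4000 bases or more 9 of 165 were higher and 23 lower (-0.32). The single lists differed in this. At 4000 bases or more the median was -0.73 for 14 coat proteins and -0.38 for 9 subunits of the vacuolar ATPase. It was 0.38 for 5 subunits of complex I, 0.56 for 4 of ATP synthase and 0.56 for 8 import proteins. The 19 dyneins of this length had a fitted median of -1.28, with 1 lower. Over all 30 dyneins tested, with a median input of 2.47 CPM, the sign depended on the IgG RIP library. For CPEB4 RIP replicate 1 the median ratio was -0.94 over IgG RIP replicate 1 and 0.35 over IgG RIP replicate 2. For CPEB4 RIP replicate 2 the sign changed likewise, with 0.19 over IgG RIP replicate 2. No direction is therefore given for dyneins as a class. In complex I the long subunits lay above the 9 subunits of 2000 to 3999 bases, whose median was 0.15. The 13 proteasome subunits under 2000 bases had a median of -0.01. Single pairs of partners are given next and do not stand for their lists. In complex I, Ndufa1 with 419 bases held 209 and 226 CPM against 81.7 and 80.7 (log2 fold 1.42, SE 0.15), and Ndufs1 with 8086 bases held 29.6 and 26.8 against 60.5 and 65.9 (-1.16, SE 0.19). The 4 values of each gene fell into groups without overlap, in opposite directions. In the dyneins, motors that move cargo along microtubules, the light chain Dynlrb1 with 1009 bases held 411 and 417 CPM against 150 and 158 (1.42, SE 0.15). The heavy chain Dync1h1 with 15658 bases held 25.4 and 22.3 CPM against 45.5 and 51.0 (-1.02, SE 0.20, edgeR adjusted p = 0.0261).

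**Figure D5:**
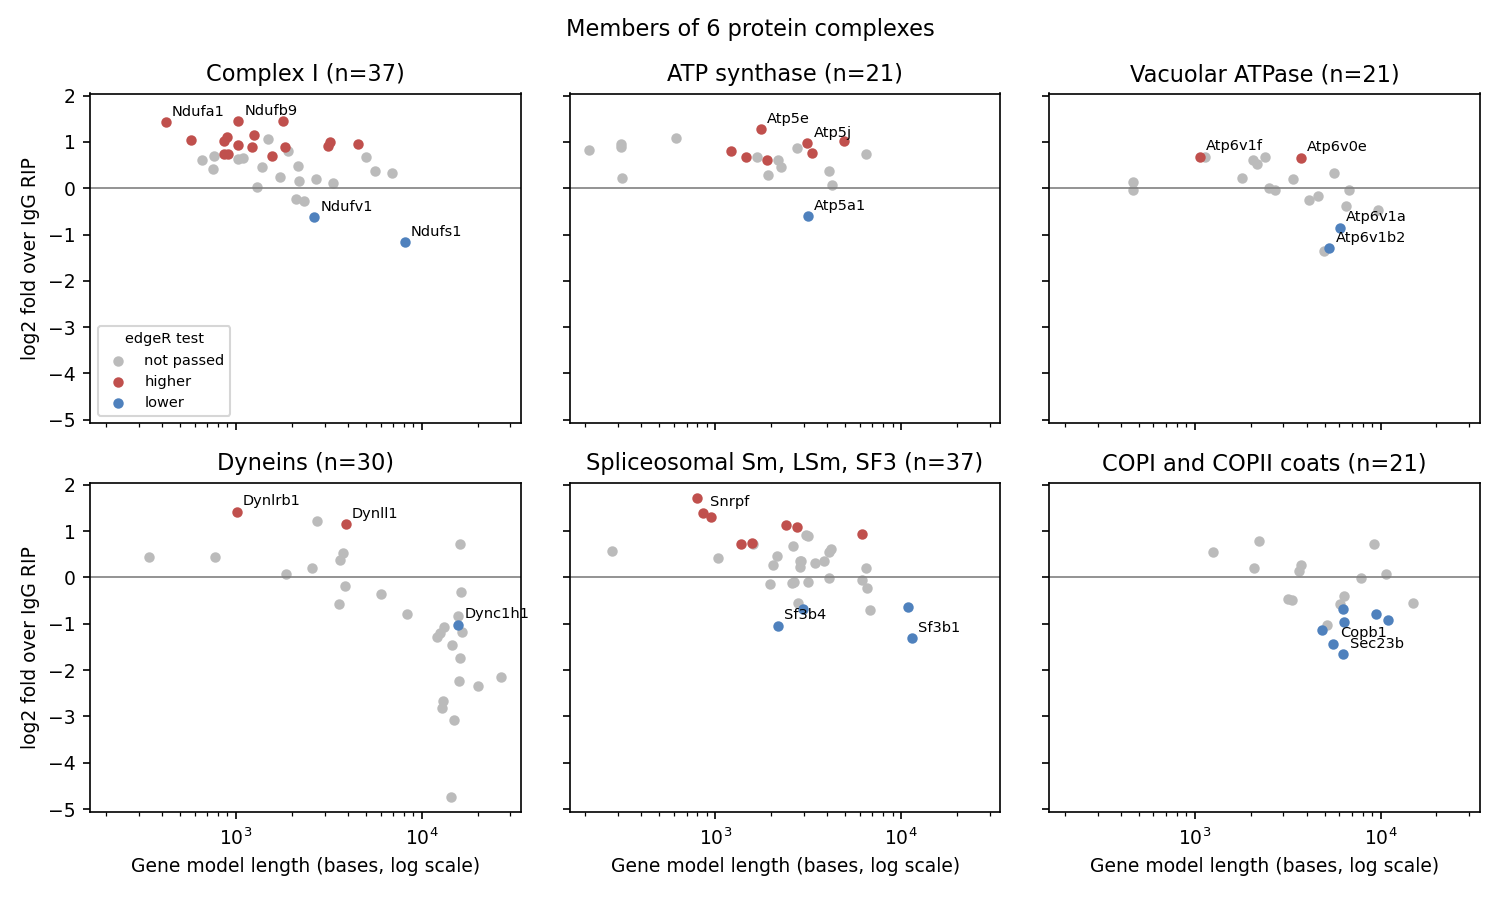
Log2 fold of CPEB4 RIP over IgG RIP (y axis) against gene model length (x axis, bases, log scale) for the tested members of 6 complexes or families. Red and blue points were higher and lower in edgeR's test and grey points did not pass. The short Ndufa1 (1.42) and Dynlrb1 (1.42) lie above 0 and the long Ndufs1 (-1.16) and Sf3b1 (-1.31) below it, as single examples. At 4000 bases or more the median was 0.38 for complex I and 0.56 for ATP synthase. It was -0.04 for spliceosomal proteins, -0.38 for the vacuolar ATPase and -0.73 for the coats, and no direction is given for dyneins.

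The vacuolar ATPase, the proton pump of lysosomes, had a median of 0.22 under 2000 bases, 0.53 at 2000 to 3999 and -0.38 at 4000 or more, with Atp6v1f (1063 bases, log2 fold 0.68) and Atp6v0e (3712 bases, 0.66) higher and Atp6v1a (6044 bases, -0.85) and Atp6v1b2 (5305 bases, -1.29) lower. Relative to genes of the same length and level, the median over the whole vacuolar ATPase list was -0.01. Proteins of the spliceosomal core had 8 of 37 higher and 4 lower, with a median of 0.21 relative to such genes. The Sm protein gene Snrpf, with 861 bases, held 103 and 104 CPM against 40.2 and 38.1 (1.40, SE 0.18). Sf3b1, with 11370 bases, held 420 and 430 against 994 and 1112 (-1.31, SE 0.13), but Sf3b4 of the same subcomplex was lower with only 2162 bases (-1.04, SE 0.20). Length did not order every pair of partners. Slc7a5, the light chain of an amino acid transporter, has 3708 bases and held 113 and 118 CPM against 32.8 and 38.5 (1.69, SE 0.18). Its heavy chain Slc3a2 has 3529 bases and held 426 and 429 against 770 and 698 (-0.78, SE 0.13, edgeR adjusted p = 0.0164).

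Of 50 DEAD and DEAH box helicases, which unwind or remodel RNA, 10 were lower and 40 did not pass, with a median of -0.45. Ddx5 held 1299 and 1343 CPM against 2668 and 3067 (log2 fold -1.12, SE 0.13, edgeR adjusted p = 0.00786). Nuclear pore proteins had 4 of 27 lower (median -0.52), and Tpr of the pore basket held 58.7 and 66.0 CPM against 155 and 192 (-1.48, SE 0.17). Relative to genes of the same length and level, helicases were lower by a median of -0.36 and pore proteins by -0.42. Without CPEB4 RIP replicate 1 neither list had a member among the 11 genes called lower. Histone modifiers and chromatin remodellers had 9 of 92 lower (median -0.34, and -0.10 relative to genes of the same length and level). Counts of lower members depended on input too, at 4 helicases and 1 chromatin gene with either input library left out.

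The hnRNP proteins, which coat nascent transcripts, had 2 of 22 members higher and 4 lower. Hnrnpab held 234 and 245 CPM against 75.6 and 85.2 (1.58, SE 0.20), and Hnrnpc held 399 and 431 against 806 and 1010 (-1.13, SE 0.18). RNA polymerase subunits had 5 of 28 higher, among them the small shared subunit gene Polr1d (0.80, SE 0.17). Genes for poly(A) addition, removal and binding, the machinery that CPEB proteins work with, had 3 of 36 lower and 33 not past the test. Relative to genes of the same length and level, the medians were 0.10 for hnRNP proteins, -0.06 for polymerase subunits and -0.03 for poly(A) genes. None of these 3 lists thus stood far from such genes as a class. The deadenylase Parn held 14.2 and 17.8 CPM against 37.4 and 42.8 (-1.32, SE 0.21). Cpeb4 itself held 16.5 and 14.9 CPM in CPEB4 RIP against 11.0 and 30.7 with IgG, so its IgG RIP values lay on either side and it did not pass.

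Of 26 cytosolic heat shock and chaperonin genes 10 were lower (38.5%) and 16 did not pass, and in 21 both CPEB4 RIP libraries were below both IgG RIP libraries. The list median was -0.62, and -0.42 relative to genes of the same length and level. Hspa8, the constitutive HSP70, held 3710 and 3624 CPM against 9531 and 8132, and Hsp90aa1 held 3134 and 3340 against 6424 and 6115 (log2 fold -0.95, SE 0.11, edgeR adjusted p = 0.00823). For Hsp90aa1 the input libraries, at 3770 and 3660 CPM, lay nearer to CPEB4 RIP than to IgG RIP, unlike Hspa8 with 9401 and 9070 in input. The list had 4 lower members with either input library left out, and none among the 11 genes called lower without CPEB4 RIP replicate 1. Of 23 genes listed for the chaperones and stress response of the endoplasmic reticulum 6 were lower and 2 higher. The latter were Atf4, a transcription factor of the stress response, and Edem1, which sorts misfolded proteins for disposal. The list median was -0.04, and -0.00 relative to genes of the same length and level, with 11 of 23 above. The list as a whole thus had no direction.

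Of 35 genes in the family of ubiquitin-conjugating enzymes 7 were higher and 28 did not pass, and in 23 both CPEB4 RIP libraries were above both IgG RIP libraries. The median was 0.50, and 0.56 above genes of the same length and level, although the median model was long at 4390 bases. Ube2r2 held 278 and 301 CPM against 79.1 and 71.8, with input at 72.3 and 86.7. Its log2 fold was 1.94 (SE 0.16, edgeR adjusted p = 0.00542), and the 4 pair ratios ran from 1.81 to 2.06. Ube2d2a, with 11565 bases, held 98.2 and 93.9 CPM against 44.8 and 38.0. Of 49 ubiquitin-specific proteases, which remove ubiquitin, 6 were lower and 1 higher, and of 41 proteasome subunits 5 were lower and 1 higher. Relative to genes of the same length and level, the medians were -0.09 for these proteases and -0.37 for the proteasome. The proteasome list had a median input of 173 CPM. Its share of lower members, 12.2%, was under the 16.8% of all genes at 100 to 1000 CPM. Usp37 held 105 and 112 CPM against 271 and 305 (-1.41, SE 0.16), and Psmd2, a subunit of the proteasome cap, held 129 and 129 against 243 and 298 (-1.07, SE 0.16). The number of higher conjugating enzymes depended on the libraries kept, as did the number over all genes. Their median ratio was 0.54 for the first pair, 0.24 for the second, and 0.36 and 0.68 for the crossed pairs.

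The signal recognition particle and the translocon, which bring nascent chains to the endoplasmic reticulum, had 6 of 22 members higher (27.3%) and 16 not past the test, with a median of 0.11. Srp9 held 241 and 252 CPM against 112 and 115 (log2 fold 1.12, SE 0.15). The COPI and COPII coats, which form vesicles between that compartment and the Golgi, had 7 of 21 lower (33.3%) and 14 not past the test, with a median of -0.49. Copb1 held 103 and 101 CPM against 259 and 287 (-1.43, SE 0.17), and Sec23b held 52.3 and 47.2 against 131 and 184 (-1.66, SE 0.20, edgeR adjusted p = 0.00793). Rab GTPases, which direct vesicles, had 5 of 66 higher (7.58%) and 1 lower, and Rab10 held 196 and 207 CPM against 70.4 and 93.9 (1.29, SE 0.20). Relative to genes of the same length and level, the medians were 0.18 for signal recognition and translocon, -0.39 for the coats and 0.06 for Rab GTPases. The coats had 4 lower members without input replicate 1 and 3 without input replicate 2, and none among the 11 genes called lower without CPEB4 RIP replicate 1.

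Protein phosphatase subunits had 13 of 64 members higher (20.3%) and 3 lower. Their median of 0.31 lay 0.47 above genes of the same length and level. Ppp1r14b, an inhibitor of protein phosphatase 1, held 151 and 145 CPM against 27.3 and 37.3 (log2 fold 2.19, SE 0.22, edgeR adjusted p = 0.00719). Ppp1cc, a catalytic subunit of the same enzyme, held 81.4 and 77.5 against 18.0 and 25.3 (1.87, SE 0.23). Ppp1r15a, a stress-induced regulatory subunit, was lower at 1016 and 860 CPM against 1734 and 1591 (-0.83, SE 0.17). Of 24 immediate early genes 5 were lower and 2 higher. Dusp1, a phosphatase of MAP kinases, held 1144 and 1094 CPM against 2534 and 2307, and the transcription factor gene Jund held 134 and 121 against 31.1 and 50.5 (1.64, SE 0.27). The number of higher members of the phosphatase list depended on the libraries kept, as did the number over all genes. The list's median ratio was 0.57 for the first pair, 0.24 for the second, and 0.22 and 0.36 for the crossed pairs.

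Noncoding RNA and pseudogenes were described by RefSeq class. Long noncoding RNAs had 18 of 822 higher (2.19%) and 12 lower (1.46%), and pseudogenes had 40 of 1688 higher (2.37%) and 16 lower (0.948%). These shares are under the background of all genes, but the median input was only 1.17 and 1.44 CPM. Of all genes at 1 to 10 input CPM, 1.96% were higher and 0.895% lower. Host genes of small nucleolar RNAs had 5 of 17 higher (29.4%) and 12 not past the test (median 0.61). The run of at least 8 pyrimidines described for ribosomal proteins was held by 5 of the 14 host genes with a promoter entry (35.7%). Zfas1 held 31.9 and 33.8 CPM against 11.6 and 11.0 (log2 fold 1.54, SE 0.23), and Snhg15 held 147 and 154 against 87.0 and 75.7 (0.89, SE 0.16). Kcnq1ot1, a nuclear noncoding RNA with a model of 93092 bases, held 21.0 and 16.6 CPM against 83.2 and 60.3 (-1.94, SE 0.24). The sources used here do not say whether strand was used in counting, so antisense transcripts such as these cannot be told apart from the genes they overlap. Genes with no RefSeq match had 18 of 1416 higher and 53 lower. The 149 olfactory receptor genes tested, of 1405 in the table, summed to between 41.6 and 60.9 CPM in CPEB4 RIP and between 115 and 222 in IgG RIP, and single members rest on few counts. Their median input was 0.825 CPM. The pair medians were -1.97 and -2.51 over IgG RIP replicate 1 but 0.00 and -0.16 over IgG RIP replicate 2, so no direction is given for them as a class.

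Markers of other cell types were measured beside these classes. In these bulk libraries the number of cells of a type, the RNA per cell and what each antibody recovers cannot be told apart. The 6 erythroid markers tested summed to between 327 and 657 CPM in CPEB4 RIP and between 87.9 and 147 in IgG RIP, with 3 of 6 higher. Hba-a1, a globin gene of 812 bases with a near-identical copy, held 452 and 213 CPM against 65.0 and 94.2 (log2 fold 2.06, SE 0.40, edgeR adjusted p = 0.0252). Myofibre markers summed to between 243 and 305 CPM against 138 to 182, with 4 of 11 higher, and leukocyte markers to between 115 and 118 against 53.1 to 87.8, with 1 of 10 higher. Fibro-adipogenic markers summed to between 1751 and 2405 CPM against 1097 to 1609, with 2 of 9 higher. Endothelial markers summed to between 338 and 484 CPM against 225 to 307, with 1 of 8 higher. The ranges of these 5 lists did not overlap between the groups, but the pairs differed. The median ratio of the first and second pair was 1.33 and -0.00 for fibro-adipogenic and 0.80 and 0.07 for endothelial markers. It was 0.68 and 0.01 for leukocyte, 2.67 and 1.15 for erythroid and 1.14 and 0.70 for myofibre markers. Pericyte and smooth muscle markers overlapped, at 571 to 758 CPM against 637 to 1024. Tenocyte and Schwann cell markers summed to between 313 and 324 CPM against 434 to 559, without overlap in the other direction, with 1 of 5 lower. The part of these other cell types in the results above was not tested. The stem cell markers summed to between 63888 and 69814 CPM against 62073 to 63440, which did not overlap either. Among them the receptor Fgfr4 was higher (0.75, SE 0.17) and the adhesion gene Vcam1 lower (-0.87, SE 0.12). Myf5, a myogenic transcription factor, held 2761 and 4098 CPM in CPEB4 RIP against 2179 and 4794 with IgG, where the groups overlapped.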

How the data were processed

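RNA was measured in 6 libraries in 3 groups of 2, assigned by the titles. Reads were aligned with HISAT2 to mm10 and counted with featureCounts, per the submitters' processing notes, which give no versions. The authors deposited a table of raw counts per gene and a table of FPKM. FPKM was used only to recover gene model length, since counts divided by deposited FPKM gave whole numbers of bases (tolerance 1e-06) for 45787 genes. The library totals behind FPKM exceeded the assigned counts by 1.29 to 1.58 times, and the sources used here do not say what they count.

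Counts were tested in edgeR 4.0.16 (R 4.3.3) by glmQLFit and glmQLFTest with group as the only term, all 6 libraries (3 residual degrees of freedom), TMM scaling and filterByExpr (minimum count 10, minimum total 15). Tests were two-sided, with Benjamini-Hochberg adjustment over 18054 genes. Log ratios of library pairs used log CPM with a prior count of 2. Depth limits counting error only, and reads carry no molecular identifiers. Symbols were matched to RefSeq (GRCm38.p6) for 38890 genes, 483 of them by synonym. The members and lists were chosen with earlier results of these data known. Lists by symbol pattern take in a few genes of similar name.

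Named genes were, per length class and direction, the 2 with the highest input level among those past the test, at least 2-fold and without overlap, then up to 2 members per list and direction with the smallest p, and Cpeb4, Pax7, Myf5 and Myod1. Not every gene the rule takes is printed. The steps were tested on simulated data. In 5 simulations between 13% and 28% of 2-fold changes and between 40% and 57% of 4-fold changes were recovered. Between 53 and 82 genes were called, and 0% to 7.32% of the calls were false. A gene that did not pass is therefore not shown to be unchanged. Whether these rates hold for the 1482 genes called in the deposited data was not tested. There the IgG RIP replicates differed more than the CPEB4 RIP replicates. Over all genes tested, the log2 difference between replicates had an SD of 1.59 for IgG RIP and 0.59 for CPEB4 RIP. Alternatives were other scalings, filters and tests (DESeq2 1.42.0), a term for replicate number, length offsets, thinning and each library left out.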

Additional observations from a re-analysis of the deposited data

How the results depend on the processing

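The main counts were 864 genes higher and 618 lower. Higher genes numbered 1508 with no low-count filter and 1541 in the DESeq2 Wald test, and between 0 and 4913 with each library left out in turn. Lower genes numbered 1026 with library size alone, 1103 at a mean count of at least 20, 976 with at least 10 counts in both input libraries, 375 with only the 4 libraries compared, 1351 in the DESeq2 Wald test, and between 0 and 3491 with each library left out. No gene called in the main test was called in the opposite direction in any of these fits. An offset for gene length fitted on all genes left 0 higher and 0 lower in edgeR, with 3797 genes at an unadjusted p under 0.05. The same offset fitted on genes of at least 10 input CPM, chosen after seeing the data, gave 684 higher and 767 lower, of which 595 and 537 were called in the main test.

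The median log2 fold of short minus long genes, 0.69, was 0.17 with no low-count filter, 0.16 with the length offset, -0.07 with the offset fitted on genes of at least 10 input CPM, and 0.22 to 0.74 with each library left out. Both offsets remove a trend with length by construction. The difference between genes of at least 100 and under 1 input CPM, 0.61, was -0.07 with no filter, -0.80 at a mean count of at least 20, -0.27 with only the 4 libraries compared, and -0.84 to 1.60 with each library left out. The cause of the other changes was not tested.

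With a replicate block 1066 genes were higher and 784 lower. Deviations of same-numbered libraries from their group means had r between -0.016 and 0.133, so the numbers were not taken to pair the samples. Of 556 values of single named genes under the alternatives, 469 kept their direction and side of the threshold, 87 no longer passed and 0 turned direction. Each gene followed this way lost its call with the length offset and without CPEB4 RIP replicate 2. With every library thinned to the lowest total, 923 genes were higher and 835 lower, the difference of short minus long genes was 0.74, and that between genes of at least 100 and under 1 input CPM was 0.03.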
